A study of Arabidopsis thaliana with 12 samples.

Results

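The 88 named genes described here had clearly more signal in the toc120 mutant of Arabidopsis thaliana than in wild type (WT). They were chosen on that difference: a gene entered when, after the 12 arrays had been given the same distribution of values (quantile normalisation), each toc120 array stood above each WT array, the toc120 mean was at least 1.5 times the WT mean, and the toc120 mean was at least 0.2. Only probes that the platform annotation assigns to 1 gene were considered, 692 of the 3439 probes on the array. Of these 692, 93 (13.4%) met the 3 conditions, and 5 genes were set aside by the rule, leaving 88 genes at 88 loci. The same conditions held for 12.1% of all probes, and the condition of separate groups alone, with toc120 higher, for 14.7%. Turned round, for genes lower in toc120, they held for 11% of the 1-gene probes and 13.2% of all probes. This balance depended on the scaling. Without the 5 set aside, 88 1-gene probes were higher and 76 lower after quantile normalisation. The same counts were 146 and 27 in the intensities as deposited, 145 and 40 with equal array totals, and 77 and 95 with equal array medians. Because the values chose the genes, their levels and folds below are a description with no test.

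Total RNA was profiled on 6 arrays of the toc120 mutant and 6 arrays of WT, both labelled as ecotype Columbia 0. The labels describe the mutant as defective in moving proteins over the outer envelope membrane of the chloroplast. The sources used here give neither the mutant allele nor the tissue, plant age, growth conditions or array type. They do not say that the 6 samples of either genotype were separate plants, so the spread between them may be technical. No 1-gene probe carries TOC120, so the genotype labels were not checked against the mutated gene.

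Most proteins of the chloroplast are encoded in the nucleus, made in the cytosol and carried into the organelle through translocons of its outer and inner envelope, the TOC and TIC complexes. TOC120 belongs to the receptors of the outer complex that bind the transit peptides of these precursors. The genes of the plastid's own genome are in turn expressed with the help of imported RNA-binding and transcription factors, and many nuclear genes for chloroplast proteins are known to respond to the state of the plastid.

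Array totals as deposited ran from 2688 to 3686 in toc120 and from 2641 to 3553 in WT, and array medians from 0.188 to 0.278 in toc120 and from 0.151 to 0.157 in WT. Arrays with neighbouring numbers (1 and 2, 3 and 4, 5 and 6) of a genotype were more alike than its other arrays, with Spearman's rho across probes of 0.952 to 0.975 against 0.910 to 0.946, and 0.806 to 0.859 between genotypes. Levels are therefore given as the range over 6 arrays, or as the mean ± SD of the 3 means of neighbouring arrays (n = 3 pair means). All levels are quantile-normalised intensities, which have no physical unit, and a fold is the toc120 mean over the WT mean. The number of arrays limits the precision. Each probe has its own brightness, so a higher level of 1 gene than of another is not read as more transcript.

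The folds of the 88 genes ran from 1.54 to 4.82, with a median of 2.53. Over all probes with signal in at least 1 genotype the median was 0.979. A fold of at least 4 was seen in 8 genes, of at least 3 in 27 and of at least 2 in 66. The mean level in toc120 lay between 0.202 and 10.7, and that in WT between 0.0543 and 5.28. In RNA of many cells a difference between the genotypes cannot be told apart from a different share of the cells that express these genes, with no change of RNA per cell.

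**Figure D1:**
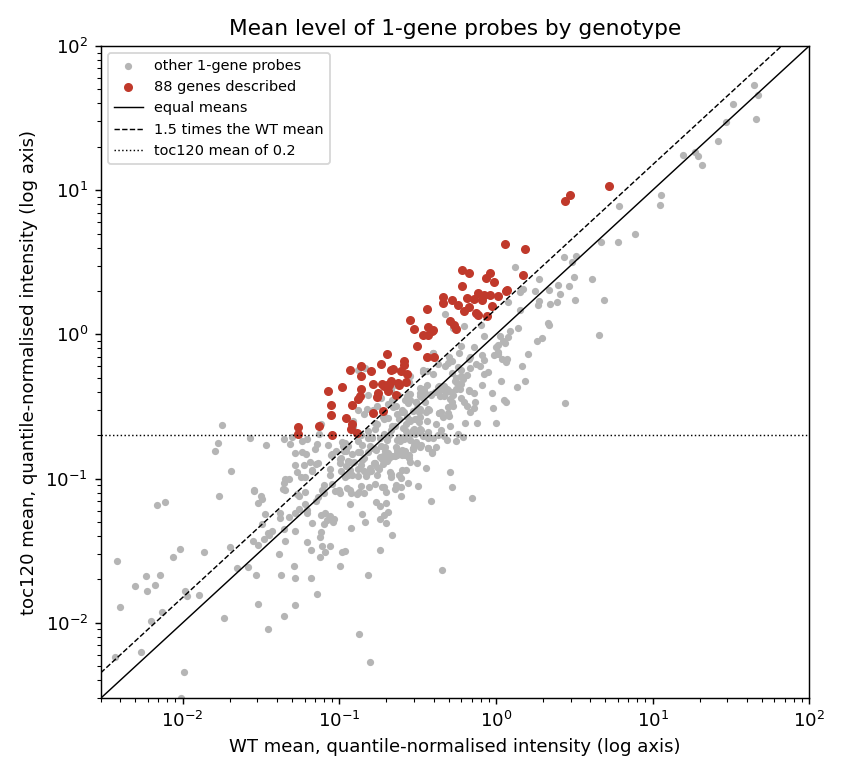
Mean quantile-normalised intensity of 1-gene probes in toc120 (vertical) against WT (horizontal), both on log axes, 1 point a probe. The 88 genes lie above the lines for 1.5 times the WT mean and for a toc120 mean of 0.2, and 93 probes are not drawn: the 5 set aside and those with a mean under 0.003 in either genotype.

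The separation between genotypes was wide for part of the genes and narrow for others. In 19 genes the lowest toc120 array was at least 2 times the highest WT array, in 47 at least 1.5 times, and in 8 under 1.1 times. The widest gap belonged to AT5G40030, at 3.58 times, followed by AT2G38500 at 3.46 times. Over all 88 genes the median gap was 1.54 times. The median coefficient of variation over 6 arrays was 16.3% in toc120 and 17.6% in WT. Over all probes with signal in the genotype it was 26.3% in toc120 and 23.4% in WT. Asking for separate groups favours both a gap and a small spread. The condition of a toc120 mean of at least 0.2 also left out dim probes, which the values over all probes include. The median toc120 mean over all probes was 0.192, so the coefficients are not compared at equal level. Neither genotype was the more even, since 44 of the 88 genes had the lower coefficient in toc120.

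Among the genes with the highest folds were a protein kinase and several enzymes. AT2G38500, of the oxoglutarate-dependent oxygenase family, had a fold of 4.82, the highest of the set by a narrow margin over AT2G23890 (4.80). Their order turned under the other 3 scalings, with AT2G23890 at 7.29 and AT2G38500 at 7.21 in the intensities as deposited, for example. The 6 toc120 arrays of AT2G38500 were at 0.536 (lowest), 0.566 (median) and 0.599 (highest), against 0.0452, 0.136 and 0.155 in WT. The toc120 arrays were nearly level, and among the WT arrays number 3 was the lowest. AT5G40030, which encodes a protein kinase, was at 2.63 (lowest), 2.78 (median) and 3.04 (highest) in toc120, against 0.498, 0.627 and 0.736 in WT. Its mean was 2.81 ± 0.166 in toc120 and 0.611 ± 0.1 in WT (SD, n = 3 pair means), a fold of 4.61. Every toc120 array of this gene was more than 3 times every WT array.

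AT5G03370, of the acylphosphatase family, was similarly tight. It measured 1.41 (lowest), 1.49 (median) and 1.67 (highest) on the toc120 arrays, against 0.292, 0.366 and 0.428 on the WT arrays, a fold of 4.14. AT3G27550, an RNA-binding protein with a CRM domain, gave 1.64 (lowest), 1.81 (median) and 2.09 (highest) in toc120 and 0.293, 0.480 and 0.560 in WT, a fold of 3.94. In both genes the genotypes were far apart. AILP1, a relative of aluminium-induced proteins, was at 2.08 (lowest), 2.49 (median) and 3.45 (highest) in toc120, against 0.557, 0.669 and 0.755 in WT, 3.94-fold higher, with toc120 arrays 1 and 2 the highest. AT2G01400 and AT3G56290, to which no function is assigned here, had folds of 4.40 and 4.11. AT2G01400 was at 0.434 to 0.758 in toc120 and 0.127 to 0.147 in WT. For AT3G56290 the toc120 arrays ran from 0.285 to 0.616 and the WT arrays from 0.0409 to 0.137, so neither gene's groups came close.

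The folds of AT2G27680 and AT2G23890 leaned on single arrays or pairs of arrays in WT. AT2G27680, of the aldo-keto reductase family, was at 0.990 (lowest), 1.25 (median) and 1.57 (highest) in toc120. In WT it stood at 0.539, 0.0669, 0.600 and 0.479 on arrays 1 to 4, and arrays 5 and 6 were listed at 0. WT arrays with neighbouring numbers 1 and 2 thus disagreed, and the fold of 4.47 became 8.27 without WT arrays 3 and 4 and 2.98 without WT arrays 5 and 6. AT2G23890, a nucleotidase of the haloacid dehalogenase family, was at 0.301 to 0.476 in toc120 and at 0.0168, 0.0731 and 0.214 (lowest, median and highest) in WT. WT array 6 carried the highest of these values, and the fold was 4.80 with it and 6.95 without it. AT4G18540, with no function assigned here, was at 0.167 to 0.323 in toc120 and 0.0187 to 0.0985 in WT, a fold of 4.21. Of all 88 genes, AT2G27680 and AT4G31930 had a WT array listed at 0, and none had a toc120 array at 0.

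**Figure D2:**
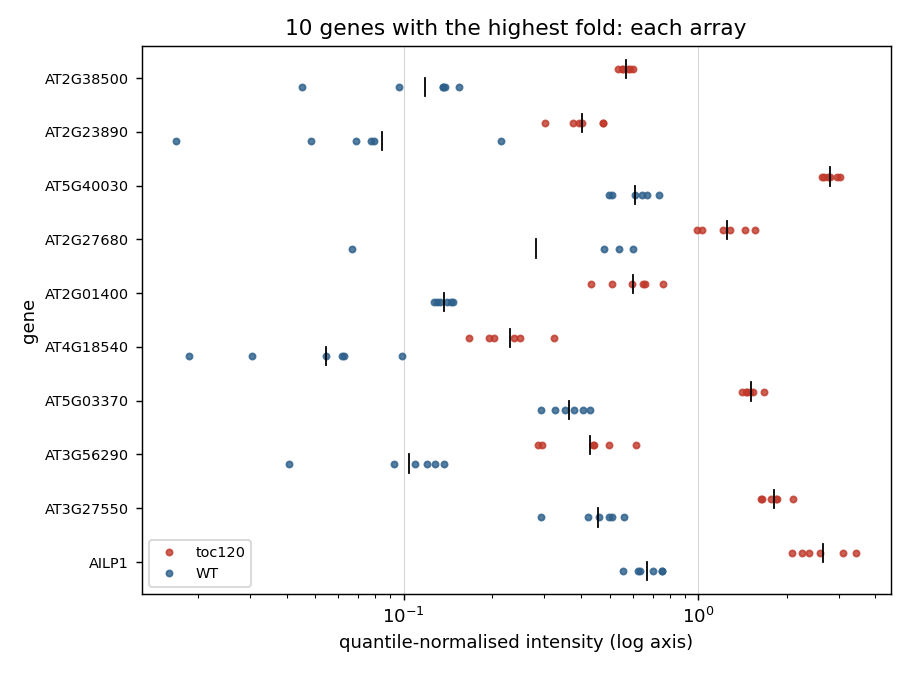
Quantile-normalised intensity (log axis) on each of the 6 toc120 and 6 WT arrays for the 10 genes with the highest fold after quantile normalisation, with a black bar at the mean. In all 10 the toc120 points lie to the right of the WT points, and the 2 WT arrays of AT2G27680 listed at 0 cannot be drawn on a log axis.

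RNA-binding proteins and factors of organelle gene expression made up 7 of the 88 genes, with folds from 1.54 to 3.94. Roles were assigned by hand to the 88 genes only. The counts of this and the following role groups therefore have no matching share over the 692 1-gene probes. They do not show that a role was more frequent among the 88 genes. Such proteins process, splice or edit the transcripts of chloroplasts and mitochondria, or act on their transcription. AT1G12800, with an S1 RNA-binding domain, was at 0.504 (lowest), 0.632 (median) and 1.17 (highest) in toc120, against 0.135, 0.196 and 0.259 in WT, a fold of 3.65. AT4G09620, of the mTERF family of organelle transcription factors, was at 8.23 (lowest), 11.6 (median) and 12.2 (highest) in toc120 and 4.16, 4.82 and 6.93 in WT, a fold of 2.02, or 1.17 with overlapping groups when arrays were scaled to equal medians. Arrays 3 and 4 were the lowest of both genotypes for this gene. The second mTERF gene, AT3G46950, was 1.94-fold higher, at 0.405 to 0.570 in toc120 and 0.153 to 0.305 in WT.

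The 2 CRM-domain genes differed in fold. AT3G27550, given above, was 3.94-fold higher, while AT4G29750 was at 0.192 to 0.223 in toc120 and 0.0869 to 0.173 in WT, a fold of 1.60. AT4G26370, whose product has the NusB domain known from bacterial antitermination of transcription, stood at 0.322 to 0.466 in toc120, against 0.183 to 0.284 in WT (1.65-fold). AT2G19280, a pentatricopeptide repeat protein, had the lowest fold of the whole set, 1.54. Its lowest toc120 array, at 1.06, was barely above its highest WT array, at 1.02. The methyltransferase genes AT5G64150 and AT1G50000 had folds of 2.78 and 2.24. AT5G64150 was at 1.01 to 1.91 in toc120 and 0.497 to 0.640 in WT, and AT1G50000 at 0.329 to 0.645 in toc120 and 0.150 to 0.254 in WT. In both, toc120 array 1 was the lowest of its genotype and array 5 the highest.

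Among the genes given a role here, those of chloroplast proteins with other roles numbered 5, and their folds ran from 2.14 to 3.69. AT1G76450 encodes a PsbP-like protein of the thylakoid lumen, a relative of a subunit of the oxygen-evolving complex of photosystem II. It was at 7.22 (lowest), 8.64 (median) and 9.18 (highest) in toc120 and 2.59, 2.77 and 2.93 in WT. Means were 8.35 ± 0.789 in toc120 and 2.75 ± 0.115 in WT (SD, n = 3 pair means), a fold of 3.03, and the spread within each genotype was narrow. AT5G58330, the NADP-dependent malate dehydrogenase that exports reducing power from the chloroplast, was 2.22-fold higher, at 0.369 to 0.596 in toc120, against 0.193 to 0.239 in WT. AT3G27110, a metallopeptidase found in plastoglobules, the lipid bodies of thylakoids, was 2.14-fold higher, at 1.1 to 1.27 in toc120 and 0.465 to 0.637 in WT.

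AT2G32040, a folate and biopterin transporter of the chloroplast envelope, was the least even of these genes. Its toc120 arrays 1 to 6 were at 0.147, 0.176, 0.257, 0.244, 0.627 and 0.502, against 0.121, 0.125, 0.0822, 0.0868, 0.0558 and 0.0595 in WT. Arrays 5 and 6 were the highest in toc120 and the lowest in WT, the fold was 3.69, and the same-number ratios ran from 1.22 to 11.2. Without toc120 arrays 5 and 6 its fold was 2.33. AT1G10310, an enzyme that reduces pterin aldehydes and so acts on precursors of folate, was at 2.93 (lowest), 4.55 (median) and 5.05 (highest) in toc120 and 0.878, 1.1 and 1.47 in WT, a fold of 3.68. In this gene toc120 arrays 5 and 6 were the lowest of their genotype.

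Protein turnover was represented by AT1G68660, a ClpS-type adaptor that passes substrates to the Clp protease of the chloroplast, and by 3 further genes. AT1G68660 was at 0.279 (lowest), 0.335 (median) and 0.357 (highest) in toc120, against 0.0562, 0.137 and 0.157 in WT, a fold of 2.68. AT5G49840, a ClpX-type ATPase of the kind that unfolds substrates for the mitochondrial Clp protease, was 2.36-fold higher, at 0.450 to 0.782 in toc120 and 0.181 to 0.368 in WT. TPP2, tripeptidyl peptidase II, a large peptidase that trims peptides, was at 0.520 to 0.642 in toc120, against 0.160 to 0.255 in WT (2.60-fold). AT4G00590, of the N-terminal nucleophile hydrolases, had a fold of 1.73. The toc120 arrays of AT4G00590 began at 0.227 and its WT arrays ended at 0.205, so the groups were close.

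Regulators of transcription and chromatin numbered 7, 2.12- to 3.29-fold higher. LAS (Lateral Suppressor), a GRAS transcription factor required for the formation of axillary meristems, was at 1.62 (lowest), 1.70 (median) and 1.86 (highest) in toc120, against 0.392, 0.556 and 0.647 in WT. Its mean was 1.73 ± 0.0947 in toc120 and 0.526 ± 0.114 in WT (SD, n = 3 pair means), a fold of 3.29. All toc120 arrays of LAS lay within a narrow band, and WT arrays 3 and 4 were its lowest. The bHLH transcription factor gene AT1G27660 only just met the minimum level, at 0.166 to 0.292, against 0.0465 to 0.112 in WT (2.24-fold).

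AT1G13370, a histone H3-type gene, was at 2.04, 2.19, 3.65, 3.65, 2.34 and 2.19 on toc120 arrays 1 to 6, against 0.815 to 1.12 in WT. Its fold was 2.91, and toc120 arrays 3 and 4 were well above the other 4. Histone H3 genes are near-identical relatives, so its probe may also carry signal of other members. AT3G03590, with a SWIB domain known from chromatin remodelling complexes, was 2.64-fold higher (0.529 to 0.653 in toc120, 0.105 to 0.298 in WT). The zinc finger genes AT5G63830 (HIT type) and AT3G21810 (CCCH type) had folds of 3.13 and 2.69. AT5G63460, with a SAP domain, a DNA-binding fold, had a fold of 2.12. The levels of these last 3 genes reached at most 0.537 in toc120 and 0.222 in WT.

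Signalling genes comprised the kinase AT5G40030 described above and the 3 below. AT2G46850, a second protein kinase gene, was at 0.864 to 1.40 in toc120, against 0.300 to 0.522 in WT, a fold of 2.72. AT5G05400, a resistance-type protein with a nucleotide-binding and a leucine-rich repeat domain, stood at 1.59 to 2.07 in toc120 and 0.619 to 0.946 in WT (2.44-fold). CML41, a calmodulin-like protein, which binds calcium, was at 0.473 (lowest), 0.744 (median) and 0.831 (highest) in toc120 and 0.372, 0.397 and 0.447 in WT. Its fold was 1.72, and its lowest toc120 array was only 1.06 times its highest WT array.

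Cell wall genes numbered 3, with folds from 1.73 to 3.59. AT4G18180, of the pectin lyase fold family that holds pectin-degrading polygalacturonases, was at 8.09 (lowest), 9.01 (median) and 10.8 (highest) in toc120 and 2.72, 2.97 and 3.21 in WT, a fold of 3.16. AT1G34270, an exostosin-type glycosyltransferase, was at 2.06 (lowest), 2.13 (median) and 2.38 (highest) in toc120 and 0.583, 0.595 and 0.665 in WT, a fold of 3.59. Its WT arrays were almost level except for array 4. AT2G15440, of a family involved in polysaccharide synthesis, was 1.73-fold higher, at 1.86 to 2.41 in toc120 and 1.05 to 1.23 in WT.

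Genes named for a response to salt, osmotic stress or drought numbered 3 beside AILP1. SIS (Salt Induced Serine rich) was at 1.57, 1.58, 0.882, 1.22, 0.687 and 0.848 on toc120 arrays 1 to 6, against 0.222 to 0.457 in WT, a fold of 3.08. As with AILP1, its toc120 arrays 1 and 2 were the highest. MAMI (membrane-associated mannitol-induced) was 2.04-fold higher, at 1.63 to 2.24 in toc120 and 0.850 to 1.03 in WT. DI21 (drought-induced 21) was at 1.72 to 2.28 in toc120 and 0.816 to 1.45 in WT, 1.74-fold higher. Among redox and metal-binding proteins, AT4G05030, with a heavy-metal binding domain, had a fold of 3.37, AT1G21350, with a thioredoxin fold, of 2.28, and CCS, the copper chaperone of superoxide dismutase, of 1.98. AT4G05030 ran from 0.579 to 0.691 in toc120 and from 0.166 to 0.206 in WT, AT1G21350 from 0.414 to 0.477 in toc120 and from 0.153 to 0.248 in WT, and CCS was at 0.201 to 0.307 in toc120 and 0.0715 to 0.152 in WT.

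**Figure D3:**
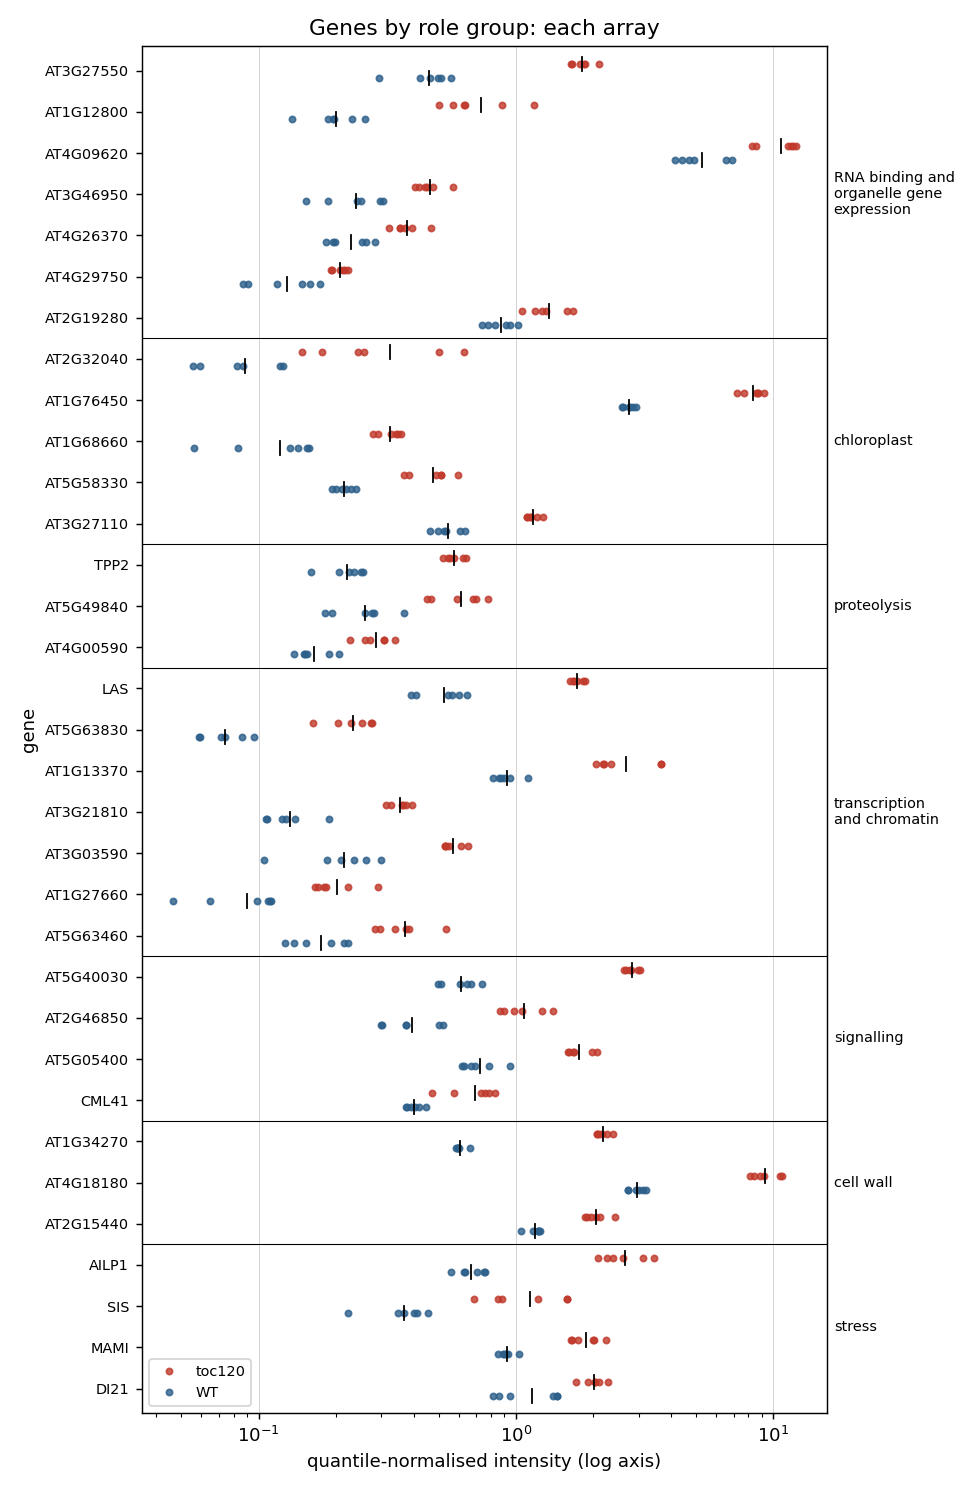
Quantile-normalised intensity (log axis) on each toc120 and WT array for the genes of 7 role groups, named at the right, with a black bar at the mean of each genotype. The toc120 points lie to the right of the WT points in each gene, with wide gaps for AT3G27550, AT1G76450, AT5G40030 and AT1G34270 and almost none for AT2G19280.

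Enzymes of metabolism formed the largest group with an assigned role, 13 genes with folds from 1.56 to 4.82. Besides the enzymes described above, AT3G04650, an oxidoreductase that binds FAD, was at 3.43 (lowest), 3.64 (median) and 4.71 (highest) in toc120, against 1.42, 1.54 and 1.60 in WT, a fold of 2.56. Its toc120 arrays 3 and 4 were the highest, whereas WT arrays 3 and 4 were the lowest of theirs. ATSPS4F, a sucrose phosphate synthase, which makes the precursor of sucrose, was 2.13-fold higher, at 1.45 to 1.93 in toc120 and 0.695 to 0.978 in WT. AT2G35390, a synthetase of phosphoribosyl pyrophosphate, the precursor of nucleotides, was 1.66-fold higher, at 1.42 to 1.79 in toc120 and 0.897 to 0.995 in WT. AT5G62840, of the phosphoglycerate mutase family, had a fold of 2.84 and tight groups, 2.08 to 2.66 in toc120 and 0.767 to 0.920 in WT.

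Further enzymes and genes of membrane trafficking had less even levels. DRT101, a sugar phosphate mutase named for toleration of DNA damage, was 2.66-fold higher (0.528 to 1.11 in toc120, 0.148 to 0.413 in WT). AT2G43180, of the phosphoenolpyruvate carboxylase family, and AT1G01500, of the erythronate-phosphate dehydrogenase family, both had folds of 2.23. AT2G43180 was at 0.443 to 0.630 in toc120 and 0.191 to 0.289 in WT. AT1G01500 had a lowest toc120 array of 0.287 and a highest WT array of 0.278, hardly apart. AT5G52810, of the ornithine cyclodeaminase family, had a fold of 1.56 and the narrowest gap of the set, 0.233 in toc120 against 0.226 in WT. AT1G58230, with a BEACH domain known from membrane trafficking, was 3.53-fold higher (0.347 to 0.785 in toc120, 0.126 to 0.187 in WT). AT1G22850, of the SNARE-associated Golgi protein family, was at 0.357 to 0.568 in toc120 and had a fold of 2.17, with WT arrays 5 and 6 at 0.0276 and 0.0853, far below its other WT arrays. Without WT arrays 5 and 6 the fold of AT1G22850 was 1.59. AT4G31930, of a mitochondrial glycoprotein family, was at 0.137 to 0.281 in toc120. In WT it was listed at 0 on arrays 3 and 4 and reached 0.125 on array 5, with a fold of 3.78, which was 2.52 without WT arrays 3 and 4 and 6.96 without WT arrays 5 and 6.

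No role is assigned here to the remaining 34 genes, whose folds had a median of 2.43. Beside AT2G01400, AT4G18540 and AT3G56290 given above, folds of at least 3 were seen in AT1G73090, AT2G32470, AT4G30150, AT4G03150 and AT1G63610 (3.06 to 3.74). The folds of AT5G66050, AT1G13970, AT5G02710, AT4G20300, AT3G04560, AT1G73470, AT1G06510, AT2G04360, AT5G38310, AT1G05860, AT2G41950, AT3G32930, AT3G57570, AT5G26850 and AT5G56070 lay between 2 and 3 (2.21 to 2.92). Those of AT2G36480, AT1G72020, AT3G50350, AT2G35450, AT3G59300, AT1G77730, AT2G31920, AT1G01730, AT5G52530, AT4G21820 and AT4G24090 lay under 2 (1.72 to 1.99). AT1G73090 was at 0.403 to 0.609 in toc120 and 0.0833 to 0.181 in WT. AT2G32470 was at 0.812 to 1.37 in toc120, against 0.209 to 0.378 in WT, and AT4G30150 at 1.36 to 2.12 in toc120, against 0.311 to 0.606 in WT. In these 3 genes the lowest toc120 array was 2.23, 2.15 and 2.25 times the highest WT array, in that order. AT4G24090, at the low end of the folds, averaged 2.57 ± 0.396 in toc120 and 1.5 ± 0.124 in WT (SD, n = 3 pair means). A step between arrays was seen in some of them. AT5G66050 was at 0.723, 0.802, 1.72, 1.64, 0.507 and 0.587 on toc120 arrays 1 to 6, and AT3G57570 at 0.960, 1.12, 2.15, 2.29, 1.12 and 1.09. The fold of AT5G66050 was 1.92 without toc120 arrays 3 and 4. In both, as in AT1G13370, toc120 arrays 3 and 4 were the highest. In WT, AT5G66050 ran from 0.232 to 0.475 and AT3G57570 from 0.548 to 0.790. WT arrays 3 and 4 were again the highest for AT5G66050, whereas for AT3G57570 WT array 4 alone stood out, and AT1G13370 was highest on WT array 1.

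The 88 genes did not follow a single order of arrays within a genotype. Taking the 3 pair means of each gene, the highest in toc120 was that of arrays 1 and 2 in 35 genes, 3 and 4 in 33, and 5 and 6 in 20. In WT the counts were 29, 32 and 27. Ratios of toc120 to WT taken between arrays of equal number had medians over the 88 genes of 2.31 (number 5) to 2.63 (number 4). Each of these 6 ratios was above 1 in all 88 genes, as the choice of genes requires.

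By position, the genes were spread over the 5 nuclear chromosomes much as the probes were. Chromosomes 1 to 5 held 23, 16, 13, 16 and 20 of the 88 genes, against 174, 123, 130, 120 and 143 of the 1-gene loci. Chromosome 3 thus held 14.8% of the 88 genes and 18.8% of the 1-gene loci. No 2 of the 88 were next to each other among protein-coding genes in the reference gene table. The closest were AT2G35390 and AT2G35450, with 3 genes between them, and AT3G04560 and AT3G04650, with 8.

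A second reading existed for 10 of the 88 genes, which also appear on a probe listed for 2 to 4 genes. These probes took no part in the choice, but their signal mixes the listed genes, and it comes from the same arrays. On 6 of the 10 the toc120 mean was the higher and on 4 the lower, and 3 met the conditions that chose the genes. Of all probes 12.1% met these conditions. The share over the 870 probes with several genes was not counted, so the counts on these 10 probes are a description only. AT1G12800 was 2.95-fold higher on its shared probe, at 0.503 to 0.723 in toc120 and 0.110 to 0.275 in WT, against a 3.65-fold difference on its own probe. For SIS the shared probe was 2.04-fold higher (0.508 to 0.699 in toc120 and 0.219 to 0.360 in WT) and for AT1G22850 2.04-fold higher (0.140 to 0.283 in toc120 and 0.0619 to 0.136 in WT). On these 3 shared probes the genotypes did not overlap, as the conditions they met require.

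Smaller ratios were found on the shared probes of AT1G05860 (1.46, without overlap), AT1G13970 (1.36) and AT5G56070 (1.24). The shared probes of AT2G43180 (0.933) and AT1G63610 (0.843) were slightly lower in toc120, with overlapping arrays. The mTERF gene AT3G46950 went the other way on its shared probe, which lists 4 genes: 0.176 to 0.336 in toc120 and 0.361 to 0.507 in WT, a ratio of 0.581 with no overlap. AILP1 had little signal on its shared probe, with toc120 arrays up to 0.0493 and WT arrays up to 0.191, and its lowest array in either genotype at 0. Which of the listed genes gave the signal of a shared probe was not tested.

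**Figure D4:**
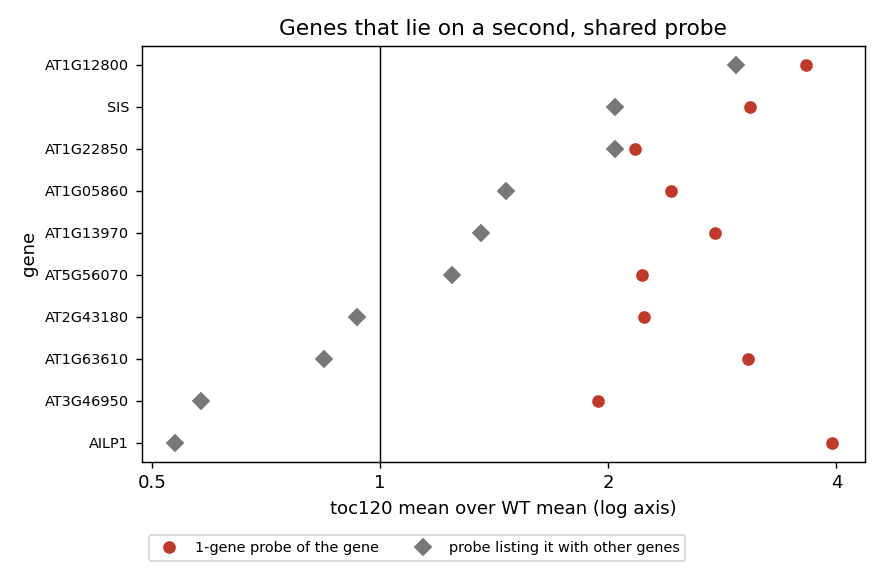
Ratio of the toc120 mean to the WT mean (log axis) for the 10 genes that lie on 2 probes, for the 1-gene probe (circles) and the probe listing the gene with others (diamonds). All circles lie right of 1 by the choice of genes, whereas 6 diamonds lie right of 1 and 4 left of it.

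The folds depended on how the arrays were scaled, though their direction did not. In the intensities as deposited the median fold of the 88 genes was 3.50, with equal array totals 3.34, after quantile normalisation 2.53 and with equal array medians 2.29. The ratio of the typical probe moved as well, from 1.40 as deposited and 1.34 with equal totals to 0.979 after quantile normalisation and 0.915 with equal medians. Relative to the typical probe the 88 genes thus differed less between scalings. In all 4 scalings each of the 88 had the higher mean in toc120, and 75 met the 3 conditions under all 4. All 4 use the arrays that chose the genes, so this is no separate check of the direction. The lowest fold was that of AT4G09620 with equal medians, 1.17.

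With equal array medians 13 genes no longer met the conditions. The folds of AT4G09620 (1.17), AT1G01730 (1.48), DI21 (1.41), AT2G15440 (1.40), AT4G24090 (1.34), AT2G35390 (1.42) and AT2G19280 (1.30) were then under 1.5. Among these, only AT2G19280 kept separate groups, with its lowest toc120 array at 1.13 and its highest WT array at 1.03. In the others the groups overlapped as well. For AT5G66050 (2.75), AT4G31930 (3.43), AT3G57570 (2.03), AT5G56070 (1.87), AT3G59300 (1.64) and AT5G52530 (1.56) the fold stayed above 1.5 but a toc120 array no longer exceeded every WT array. The mTERF gene AT4G09620 and the pentatricopeptide repeat gene AT2G19280 were in the first of these groups. All 88 genes met the conditions as deposited and with equal totals.

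**Figure D5:**
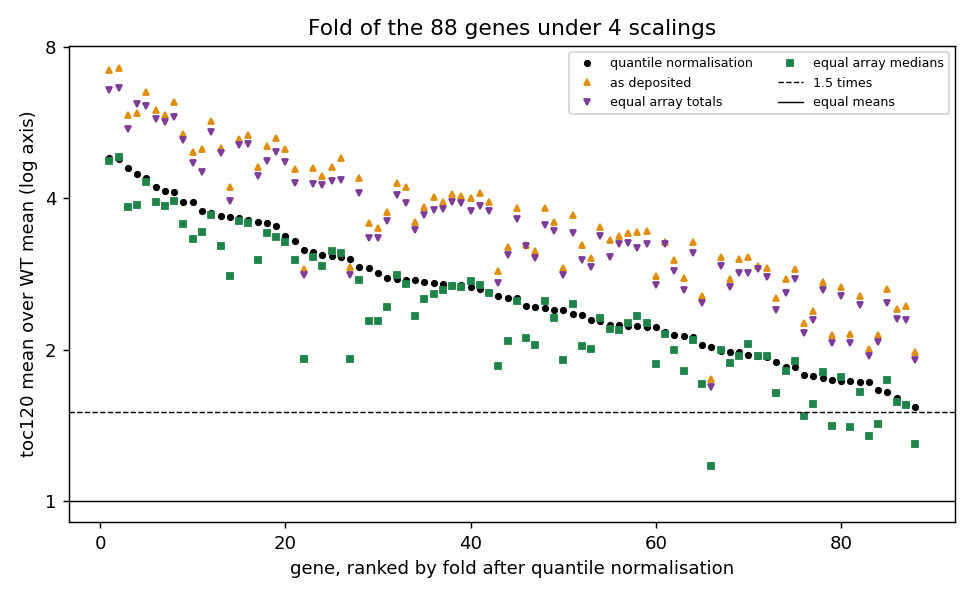
Ratio of the toc120 mean to the WT mean (log axis) for the 88 genes, ranked from left to right by fold after quantile normalisation, under 4 scalings of the arrays. No point lies under 1, and some of the points for equal array medians lie under the dashed line at 1.5.

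Genes just outside the conditions had values close to those just inside. By fold, AT2G19280 (1.54) and AT5G52810 (1.56) were the last to enter, while AT3G16760 (1.46) and AT1G33250 (1.40) had separate groups but too small a fold. By level, AT1G27660 (0.202) and AT4G31930 (0.205) had the lowest toc120 means inside, and AT1G54520 (0.195) and AT5G53930 (0.192) the highest outside. By overlap, AT1G18060 and AT3G43610 stayed outside because their lowest toc120 array was 0.986 and 0.982 times their highest WT array. Missing a single condition were 5 genes by fold, 14 by level and 31 by overlap.

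Over all probes, limma called 736 higher in toc120 (21.4% of 3439) and 853 lower (46.2% in either direction), at a Benjamini-Hochberg adjusted p under 0.05. This fit took the 12 arrays as separate samples, though neighbouring arrays were near duplicates, so its counts may be too high. With neighbours averaged, 503 were called higher and 583 lower, and with the pair of numbers also as a block 485 and 498. All 88 genes were among the 736 called higher on the 12 arrays, which the conditions that chose them nearly fix, so nothing is read from that count. Words in the gene names and synonyms of the reference table placed only 29 of the 692 1-gene probes in a functional class, 3 of them among the 88 genes. TPP2 was 1 of 2 probes in the class of proteolysis, AT5G58330 1 of 10 in redox and metabolism, and CCS 1 of 1 in stress and defence. In redox and metabolism, the fit on the 12 arrays called 1 probe higher and 2 lower. Of 5 probes in the chloroplast and photosynthesis class it called 0 higher and 3 lower, of 4 for kinases and phosphatases 0 higher and 2 lower, and of 5 for the cell wall 2 higher and 1 lower. The classes of organelle RNA factors and of transcription held 1 probe each, not called, and those of transport, RNA and translation, and trafficking held 0. The words missed many genes. None of the 5 chloroplast genes or the 7 genes of RNA binding and organelle gene expression described above fell in the matching class. The calls by class therefore do not describe genes of these functions as a whole.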

How the data were processed

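The values are the probe intensities that the authors deposited, 3439 probes on each of 12 arrays, linear and between 0 and 100. How they were corrected for background and scaled is not stated there. The file holds no background values. Probes were named from GEO's platform annotation (692 with 1 gene, 870 with several, 1877 with none), matched by gene ID to the TAIR10.1 gene table, which held 690 of the 692. The table has no descriptions, so functional classes planned by words in them used names and synonyms instead, and planned promoter motifs were not examined. Roles in the text are background knowledge, assigned to 54 of the 88 genes. The genes and lists were chosen with earlier results of these data known.

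Arrays were quantile-normalised with limma 3.58.1 (normalizeQuantiles) in R 4.3.3. Every chosen gene is named, with levels for the 10 highest folds, the 5 highest toc120 means and each role group. The fit over all probes used lmFit and eBayes, two-sided, on log2(intensity + 0.0276), where 0.0276 was the 5th percentile of intensities above 0. Plots used Python 3.11.15 and matplotlib 3.10.9.

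Whether equal numbers pair the samples was checked on deviations from the genotype mean. Across probes, a toc120 array and the WT array of its number correlated with r from 0.217 to 0.350, and all 12 arrays matched best, in the other genotype, the array of their own number. The pairing comes from the data, not the labels. Alternatives were other scalings, averaged neighbours, medians, a replicate block, each array left out, and other thresholds.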

Additional observations from a re-analysis of the deposited data

Results flagged for a closer look

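In 6 of the 176 groups of 6 arrays (88 genes, each genotype apart), all in WT, 1 array stood apart from the other 5 by more than Dixon's critical value of 0.625 of the group's range. For independent arrays chance alone marks about 1 group in 20, more than were seen here, but that rate may not apply. Neighbouring arrays are near duplicates. The choice of genes had also left out any gene with an array that crossed into the range of the other genotype. WT array 6 was at 0.214 for AT2G23890, against 0.0168 to 0.0790 on the other WT arrays, and without it the fold of this nucleotidase gene was 6.95 instead of 4.80. The exostosin gene AT1G34270 was at 0.665 on WT array 4, against 0.583 to 0.601. On the same array AT3G57570 was at 0.79, against 0.548 to 0.612. AT4G20300 was at 0.779 on WT array 3, against 0.614 to 0.657. For AT2G35450 WT array 6 was at 0.43, against 0.325 to 0.361. AT2G15440 was the one case of a low array, at 1.05 on WT array 5, against 1.17 to 1.23.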

How the results depend on the processing

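The number of genes meeting the conditions was 88 after quantile normalisation, 146 with the intensities as deposited and 145 with equal array totals, and the median fold of the 88 genes was 2.53, 3.50 and 3.34 under these scalings. With equal array medians the median fold was 2.29, and 75 of the 88 met the conditions again. Other settings kept the count within 1.5 times. With a fold of at least 2 the count was 66. Leaving out 1 array at a time gave 87 to 95 genes, kept 86 to 88 of the 88, and put the median fold between 2.45 and 2.57. With any arrays left out, the groups of the 88 genes stay separate by their choice. Only the conditions of fold and level could then drop a gene, so the number kept is no sign of stability. The genes lost in these fits were AT1G27660, AT4G31930, AT5G52810 and AT2G19280, all near a threshold, and medians in place of means also lost AT1G27660, AT5G52810 and AT2G19280. No gene's fold moved by more than 1.45 times when 1 array was left out, but its near-duplicate neighbour then remained. Leaving out both neighbours of a genotype, an alternative chosen after seeing the data, gave 91 to 109 genes, kept 86 to 88 of the 88 and put the median fold between 2.44 and 2.56. It moved 5 folds by over 1.5 times, those of AT2G27680, AT4G31930, AT2G32040, AT2G23890 (7.59 without WT arrays 5 and 6) and AT5G66050. Of 2110 folds of single genes under the alternatives, 1931 moved by less than the spread between same-number ratios, 179 by more, and 0 changed direction. Only the other scalings could have turned a direction, since the choice of genes fixed it for any subset, mean or median of the arrays. A turn was unlikely there too, as they rescale the arrays that chose the genes. The ratio of the typical probe, 0.979 after quantile normalisation, rose to 1.40 as deposited and 1.34 with equal totals. With equal medians it fell only to 0.915. That no direction changed is therefore no sign of stability.

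With same-number arrays as a block (the geometric mean of their ratios), the median fold was 2.54, over the 86 genes with no array at 0. Limma's calls over all probes numbered 1589, against 1689 with the replicate block and 1086 with neighbours averaged. Averaging neighbours and also blocking on the pair of numbers gave 983, a fit on fewer samples. Of the 88 genes 87, 77 and 73 were called higher in these last 3 fits, against 798, 503 and 485 of all 3439 probes. With neighbours as a random block 85 were called higher, against 607 of all probes (1289 calls in either direction). Without any 1 array it was 87 to 88, when 1508 to 1589 probes were called in either direction. The genes were chosen on this contrast in the same arrays, so these counts are no sign of stability. Of the calls, 46.3% were higher in toc120 after quantile normalisation, against 74.4% in the deposited intensities and 41.3% under equal medians. Background values are not in the file, so signal over background limits the dim genes to an unknown degree.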
